A study of Homo sapiens with 22 samples.

Results

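Ribosomal protein genes encode the protein part of the cytosolic ribosome, and their expression was followed here in MDA-MB-231 cells, an established triple-negative breast cancer (TNBC) line, after stimulation with 2 ligands of the glucocorticoid receptor (GR). The members were all genes whose symbol is RPL or RPS followed by the number of a large- or small-subunit protein, with the letter A or X or the paralog endings L and L1, plus RPLP0, RPLP1, RPLP2 and RPSA. Pseudogenes and the genes of the mitochondrial ribosome were left out. Of 20668 genes listed, 84 were members, 52 of the large subunit and 32 of the small subunit. A filter of at least 0.5 RPKM (read counts scaled for transcript length and for the mapped reads of the library) in at least 2 samples kept 12713 genes, 81 members among them. RPL21 was not analysed here.

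The RNA sequencing compared vehicle with 100 nM dexamethasone (Dex), a synthetic glucocorticoid, for 2 h and 4 h, and with 10 μM Compound A (CpdA), a selective GR modulator, for the same times. There were 2 replicates per group and 10 samples in all, and the labels give no time for vehicle, so the same 2 vehicle samples served every comparison with vehicle. All cells had been kept for 3 days in medium with charcoal-stripped serum before treatment. The cells are 1 line and carry no introduced gene, and the replicates were described only as biological duplicates.

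The ribosome is built from ribosomal RNA, made by RNA polymerase I and III, and from ribosomal proteins, most of which the cell must supply in equal numbers. Most mRNAs of ribosomal proteins begin with a run of pyrimidines, the 5′ terminal oligopyrimidine (TOP) tract, through which mTOR and LARP1 control their translation and stability. The mRNAs are long-lived and abundant in dividing cells.

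The labels were read against genes chosen with earlier results of these data known, so their values are not an independent check. PDK4, a GR target, was listed at 0.140 to 0.158 RPKM with vehicle and at 37.5 to 70.4 with Dex, and HSPA6, a heat-shock gene, rose from 0.331 to 0.457 with vehicle to 11.6 to 54.4 with CpdA. VIM, a mesenchymal marker, averaged 1397 RPKM over the samples, CDH1 0.349, and the leukocyte gene PTPRC 0.0416. Of 13 cell type markers listed, which include further epithelial genes and hormone receptors, 8 passed the filter. VIM, CDH1 and PTPRC alone do not describe the others. Depth relative to vehicle replicate 1, estimated from the spacing of low values, was 1.013 in vehicle replicate 2 and 1.058 to 1.212 in the 8 treated samples, so both vehicle libraries were the shallowest. The total number of reads is unknown, and fewer transcripts per cell and fewer cells expressing a gene cannot be told apart in bulk RNA.

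The start of the transcript is shown for the 7 members called in any comparison described later, because the TOP tract is the sequence feature these genes share. Each window runs from 10 bases before the annotated start through the first 20 transcribed bases, read 5′ to 3′ on the strand of the gene from RefSeq on GRCh38.p14, with the tract in capitals. A tract was taken as a C followed by pyrimidines, at least 5 bases in all, beginning within 5 bases of the annotated start.
RPL10 (chrX:154398367-154398396, plus strand): ggaggagcgCCTCTTTCCCTTCggtgtggt
RPL14 (chr3:40457329-40457358, plus strand): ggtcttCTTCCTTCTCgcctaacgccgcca
RPS10 (chr6:34426050-34426079, minus strand): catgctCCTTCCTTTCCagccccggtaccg
RPS27A (chr2:55232678-55232707, plus strand): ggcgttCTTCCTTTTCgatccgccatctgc
RPS28 (chr19:8321486-8321515, plus strand): gaagcacgtgaCTCCTCTCCgccagaccgc
RPS26 (chr12:56041908-56041937, plus strand): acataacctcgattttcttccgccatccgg
RPL7L1 (chr6:42879606-42879635, plus strand): gtgcggcgccgtagctaggagcggacgcca
RPL10 and RPS27A have further annotated starts, and the window with the tract is shown. RPS26 and RPL7L1 held no tract by this definition.

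Of the 84 members, 67 were matched in the RefSeq promoter table, and 54 of them (80.6%) held a TOP tract at 1 or more annotated starts. Over the 27305 genes of the table the share was 25.2%. The longest tract of a member ran from 5 to 22 bases with a median of 11. Members matched without a tract were RPL10L, RPL15, RPL17, RPL26L1, RPL27, RPL6, RPL7L1, RPL9, RPS15, RPS26, RPS27L, RPS29 and RPS4X. Among the members not matched were RPL23, RPL23A, RPL30, RPL37, RPL39L, RPL3L, RPL5, RPL7, RPL8, RPS15A, RPS2 and RPS20.

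Further motifs were searched on both strands of the 300 bases around each start. The letters CCGGAAG, a core bound by ETS factors, were found in 35.8% of members and 12.2% of all genes. The GC box GGGCGG was found in 59.7% and 48.3%, the E-box CACGTG in 7.5% and 8.8%, and TATAAA in 10.4% and 14.0%. TGTTCT, the core of a GR-binding element, was found in 13.4% of members and 17.5% of all genes. These matches describe letters in a window and not bound sites.

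The members were among the most abundant mRNAs of the cells. Their median level over the 10 samples was 149 RPKM, against 8.40 RPKM over all genes kept, and 58 members ranked in the top 1000 of all genes. A mean of at least 100 RPKM was reached by 48 members, 24 lay between 10 and 100, 9 between 0.5 and 10, and 3 below 0.5. RPL30, a large-subunit protein, had the highest mean at 692 RPKM, with 659 and 648 RPKM in the vehicle replicates. RPL8 followed at 677 RPKM (637 and 655 with vehicle), and the stalk protein RPLP1 at 611 (572 and 584 with vehicle). RPL30 and RPL8 did not overlap with RPLP1 in the vehicle replicates.

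**Figure D1:**
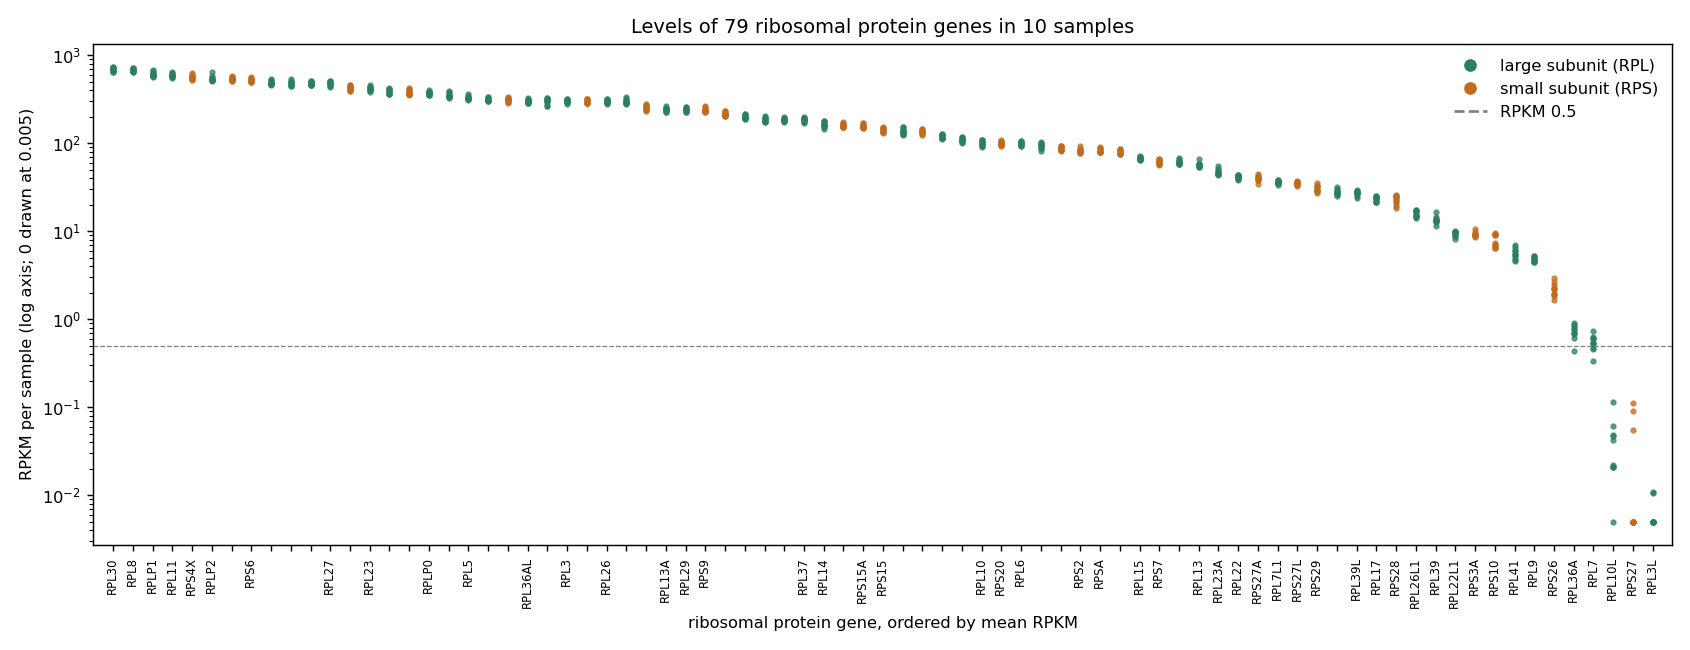
RPKM of 79 ribosomal protein genes on a log axis, 1 point per sample, ordered by the mean over 10 samples, with large-subunit genes (stalk included) in green and small-subunit genes in orange and values of 0 drawn at 0.005; genes named in the text are labelled. Most members lie above 10 RPKM with samples close together, and a tail of 11 of those drawn has a mean under 10.

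At the other end, several ribosomal protein genes were listed close to 0. RPS27 was listed at 0.111 and 0.0548 RPKM in the vehicle replicates, at 0.0918 in Dex 2 h replicate 2, and at 0 in the other 7 samples, and failed the filter together with the tissue-restricted paralogs RPL3L and RPL10L. RPL7 averaged 0.545 RPKM and RPL36A 0.730. Among the members with the widest gap between the vehicle replicates were RPL41 and RPS26, at 0.49 and 0.39 on the log2 scale.

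Leaving out the 8 genes with an L or L1 ending, 9 of 76 members averaged under 10 RPKM, RPS27, RPL7 and RPL36A among them and also RPS26, RPL9, RPL41, RPS10 and RPS3A. In the GENCODE annotation these 9 had a median of 30 named pseudogenes (3 to 61) and the other 67 a median of 12 (1 to 87). Across the 76 genes Spearman's rho between mean RPKM and number of pseudogenes was −0.412, a description over genes measured in the same libraries. Rows named as pseudogenes also held reads, such as RPL19P12 at a mean of 41.4 RPKM and RPL23P8 at 32.6. Reads of 50 bases can align to a gene and its near-identical copies, the treatment of such reads is not given in the sources used here, and the levels of these members are therefore uncertain. The part of shared reads in them was not tested.

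Within paralog pairs the listed levels went in both directions. RPL36AL averaged 303 RPKM against 0.730 for RPL36A, RPL7L1 36.2 against 0.545 for RPL7, RPS27L 35.2 against 0.0258 for RPS27, and RPL39L 27.1 against 13.5 for RPL39. In contrast, RPL26 averaged 299 RPKM against 15.8 for RPL26L1, RPL22 41.3 against 9.36 for RPL22L1, RPL3 300.1 against 0.00218 for RPL3L, and RPL10 101 against 0.0398 for RPL10L. In each pair the samples of the lower gene lay below those of the higher gene.

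The summed level of the 84 members moved by little. It was 16963 and 17049 RPKM in the vehicle replicates, 17704 and 16665 with Dex for 2 h, and 19109 and 16887 with Dex for 4 h. With CpdA it was 18119 and 17167 after 2 h and 18591 and 18032 after 4 h. Only the CpdA 4 h group and the CpdA 2 h group lay above both vehicle samples in both replicates, and each Dex group had its second replicate below vehicle. As a share of all RPKM the members took 5.50% and 5.55% with vehicle. With Dex the share was 5.61% and 5.41% after 2 h and 5.91% and 5.47% after 4 h. With CpdA it was 5.75% and 5.54% after 2 h and 5.91% and 5.82% after 4 h. On this scale only the CpdA 4 h group lay above both vehicle samples in both replicates. The ratio of summed large- to small-subunit RPKM stayed between 1.74 and 1.78 in the 10 samples.

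The replicates of a treated group differed along the whole set. Replicate 1 was above replicate 2 in 78 of 81 members with Dex for 4 h, with a median gap of 0.17 on the log2 scale (12.8%). It was above in 76 members with Dex for 2 h, 78 with CpdA for 2 h, 67 with CpdA for 4 h and 36 with vehicle. The gap was shared by other genes with short transcripts: at Dex 4 h it had a median of 0.15 over 746 genes of up to 1000 bases, 0.11 over the 77 mitochondrial ribosomal protein genes, and 0.00 (−0.002) over 10644 longer genes. The median transcript of a member had 827 bases, and of the genes kept 3234. The part of transcript length in the results was not tested.

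**Figure D2:**
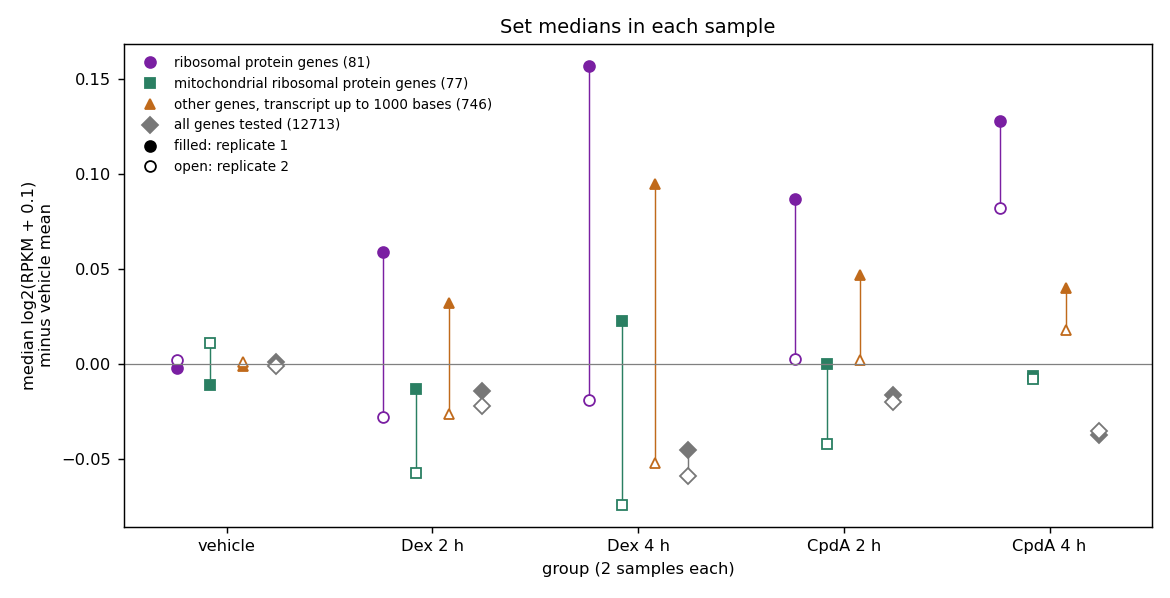
Median difference from the vehicle mean on the log2(RPKM + 0.1) scale in each of the 10 samples, for the ribosomal protein genes, the mitochondrial ribosomal protein genes, other genes with short transcripts and all genes tested, with replicate 1 filled and replicate 2 open. The ribosomal protein genes sit at 0.128 and 0.082 in the CpdA 4 h samples and at 0.157 and −0.019 in the Dex 4 h samples.

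Dex for 2 h left the ribosomal protein genes close to vehicle. By limma on log2(RPKM + 0.1), with Benjamini-Hochberg adjustment over all genes and calls at an adjusted p under 0.05, no member rose and only RPS26 fell, against 10.3% of all genes called (4.49% higher and 5.82% lower). At an unadjusted p under 0.05 there were 4 of 81 members, against 2770 of 12713 genes. The median log2 fold change of the 81 members was 0.02 (−0.02 after quantile normalization, so its sign turned) and that of all genes −0.02. For 65 members (80.2%, against 47.7% of all genes) the 95% interval lay within a 1.2-fold change either way. Both Dex 2 h samples were above both vehicle samples in 16 members (20.1% of all genes) and below in 7 (31.4%).

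RPS26, a small-subunit protein at the mRNA exit channel, was listed at 2.23 and 2.96 RPKM with vehicle and at 1.66 and 1.84 with Dex for 2 h. The Dex samples lay below both vehicle samples, which were themselves 0.39 apart on the log2 scale. The log2 fold change was −0.53 ± 0.12 (SE, n = 2 against 2; limma adjusted p = 0.0261). The call was lost in 6 of 20 alternative analyses, among them those without vehicle replicate 2 and without either Dex 2 h replicate. RPL36A also had low Dex 2 h values, 0.434 and 0.616 RPKM against 0.775 and 0.910 with vehicle, and was not called.

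After 4 h of Dex, 3 members rose and 1 fell, against 27.4% of all genes called (9.26% higher and 18.2% lower). The members that rose were RPS28, RPS27A and RPL10, and RPS26 fell again, a call lost in 14 of 20 alternative analyses. By limma 9 of 81 members had an unadjusted p under 0.05, against 4877 of 12713 genes. The median log2 fold change was 0.07 for the members and −0.05 for all genes, and that of the members was 0.14 after median scaling of the samples and 0.001 after quantile normalization. For 56 members (69.1%, against 37.1% of all genes) the 95% interval lay within 1.2-fold. Both Dex 4 h samples were above both vehicle samples in 19 members (18.5% of all genes) and below in 4 (36.6%). The size of this result turned on which library was read. The median of the members was 0.157 without Dex 4 h replicate 2 and −0.019 without Dex 4 h replicate 1. The calls of RPS28 and RPS27A were lost in 2 and 4 of 20 alternative analyses.

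RPS28, a small-subunit protein near the mRNA exit, was listed at 19.3 and 18.5 RPKM with vehicle, 25.5 and 22.7 with Dex for 4 h and 25.2 and 24.3 with CpdA for 4 h. All 8 treated samples were above both vehicle samples, with 24.9 and 20.9 RPKM at Dex 2 h and 22.0 and 23.9 at CpdA 2 h. The log2 fold change was 0.35 ± 0.09 with Dex for 4 h (adjusted p = 0.0143) and 0.39 ± 0.09 with CpdA for 4 h (adjusted p = 0.0126). At 2 h it was 0.27 with Dex (adjusted p = 0.0903) and 0.28 with CpdA (adjusted p = 0.0993), neither of them past the threshold. The comparisons share the vehicle samples.

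RPS27A, made as a fusion of ubiquitin with a small-subunit protein, was listed at 34.8 and 37.8 RPKM with vehicle and 44.2 and 40.5 with Dex for 4 h. The Dex 4 h samples lay above vehicle, and the log2 fold change was 0.22 ± 0.06 (adjusted p = 0.0156). With CpdA for 4 h the samples were at 40.8 and 39.5 RPKM, also above vehicle, with a log2 fold change of 0.15 (adjusted p = 0.0954).

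RPL10, a large-subunit protein that joins the subunit late in its assembly, was listed at 92.3 and 91.2 RPKM with vehicle, 108 and 98.2 with Dex for 4 h and 110 and 109 with CpdA for 4 h. It was at 99.3 and 96.1 RPKM with Dex for 2 h and at 103 and 100.0 with CpdA for 2 h. Every treated sample was above both vehicle samples. The log2 fold change was 0.17 ± 0.05 with Dex for 4 h (adjusted p = 0.0331), a call lost in 13 of 20 alternative analyses, and 0.25 ± 0.05 with CpdA for 4 h (adjusted p = 0.00751), lost in 1 of 20.

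CpdA for 2 h changed no member past the threshold, against 6.18% of all genes called (1.89% higher and 4.29% lower). By limma 3 of 81 members had an unadjusted p under 0.05, all of them higher. Among all 12713 genes there were 2576, with 774 of them higher. The median log2 fold change of the members was 0.05, against −0.02 over all genes. Both CpdA 2 h samples were above both vehicle samples in 32 members (21.6% of all genes) and below in 5 (33% of all genes). For 66 members (81.5%, against 47.6% of all genes) the 95% interval lay within 1.2-fold.

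After 4 h of CpdA, 4 members rose and none fell, against 20.5% of all genes called (6.76% higher and 13.8% lower). These were RPS10, RPS28, RPL10 and RPL14. By limma 15 of 81 members had an unadjusted p under 0.05, all of them higher with CpdA. Among all 12713 genes there were 4223, with 1456 of them higher. The median log2 fold change of the members was 0.10 (7.29%), with a middle range of 0.06 to 0.15, while that of all genes was −0.04. It was 0.17 after median scaling and 0.05 after quantile normalization. Both CpdA 4 h samples were above both vehicle samples in 56 of 81 members (25.1% of all genes) and below in 1 (39.5%).

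The change was small and alike in the 2 subunits, with a median of 0.10 over 50 large-subunit and 0.10 over 31 small-subunit members. The interval of 41 members (50.6%, against 37.7% of all genes) lay within 1.2-fold. Other genes of at least 100 RPKM had a median of 0.05 at CpdA 4 h, other short genes 0.02 and longer genes −0.05 (−0.045), and the part of abundance and length in the members' value was not tested. The calls were lost without CpdA 4 h replicate 1 and, except for RPL10, without CpdA 4 h replicate 2. Those of RPS28 and RPL14 were lost in 3 and 6 of 20 alternative analyses. The Dex 4 h replicates contribute to this comparison through the spread alone. Leaving out either of them raised the calls among the members and also among all genes. The median of the members was 0.08 and 0.13 without the CpdA 4 h replicates in turn.

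**Figure D3:**
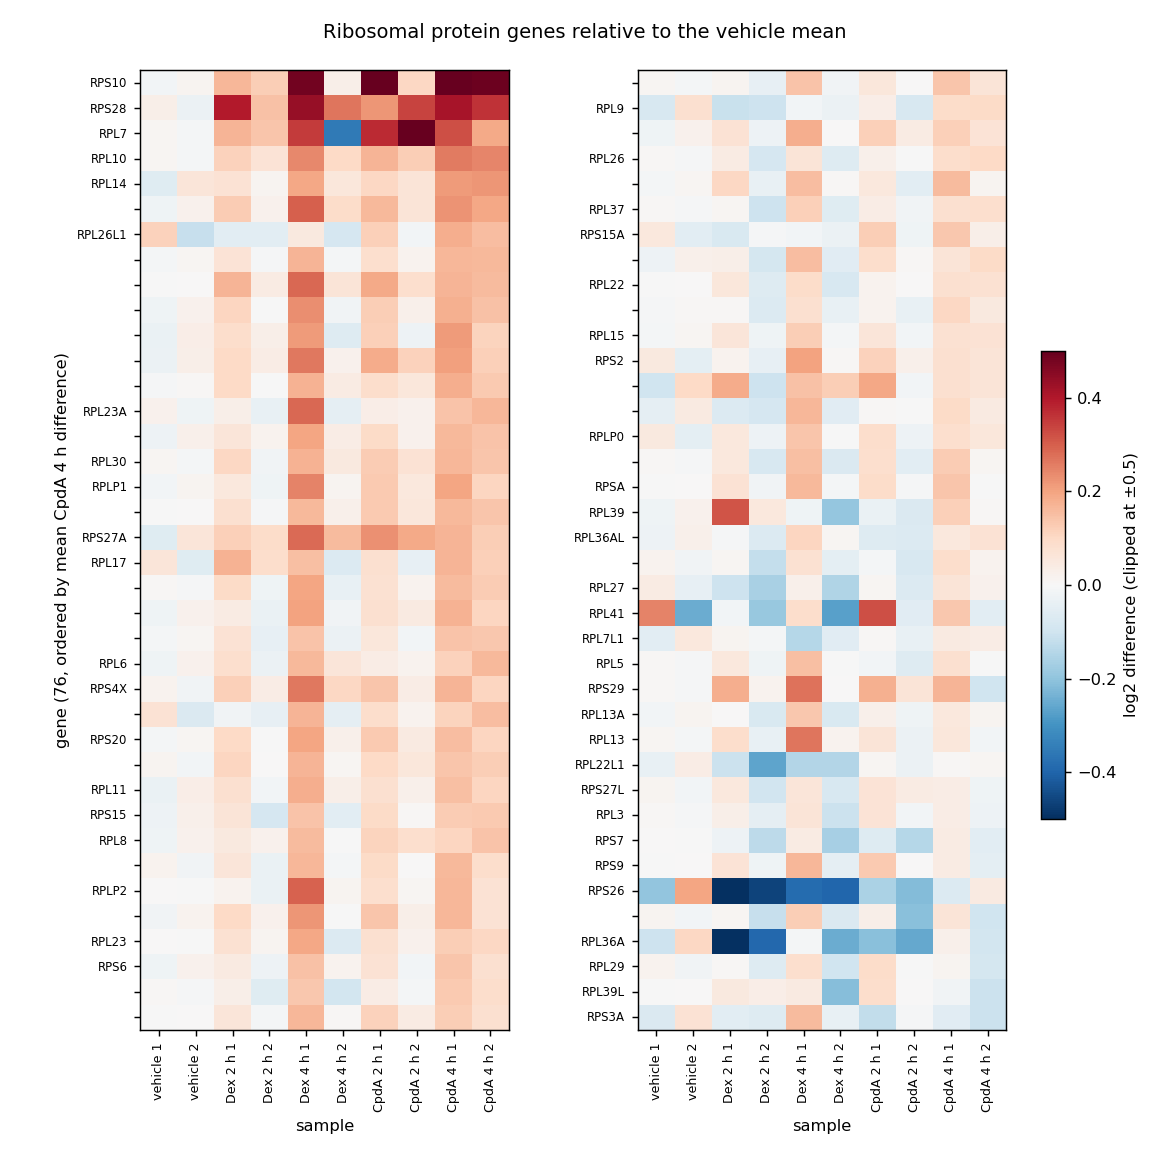
Log2 difference of each of 76 ribosomal protein genes from its vehicle mean in the 10 samples (columns), with genes (rows) ordered by their mean difference at CpdA 4 h and colours clipped at 0.5 either way; genes named in the text are labelled. The Dex 4 h replicate 1 column and both CpdA 4 h columns are red over most of the set, whereas the Dex 4 h replicate 2 column is mixed, and RPS26 is blue in the 4 Dex samples.

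RPS10, a small-subunit protein, was listed at 6.40 and 6.53 RPKM with vehicle and 9.65 and 9.11 with CpdA for 4 h. Its replicates were far apart with CpdA for 2 h (9.27 and 6.95) and with Dex for 4 h (9.07 and 6.61). The log2 fold change at CpdA 4 h was 0.53 ± 0.15 (adjusted p = 0.0387), the largest of the members called, and the call was lost in 8 of 20 alternative analyses.

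RPL14, a large-subunit protein, was listed at 146 and 159 RPKM with vehicle and at 177 and 177 with CpdA for 4 h. The CpdA samples were above both vehicle samples and differed by less than the vehicle replicates did. The log2 fold change was 0.22 ± 0.06 (adjusted p = 0.0273).

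**Figure D4:**
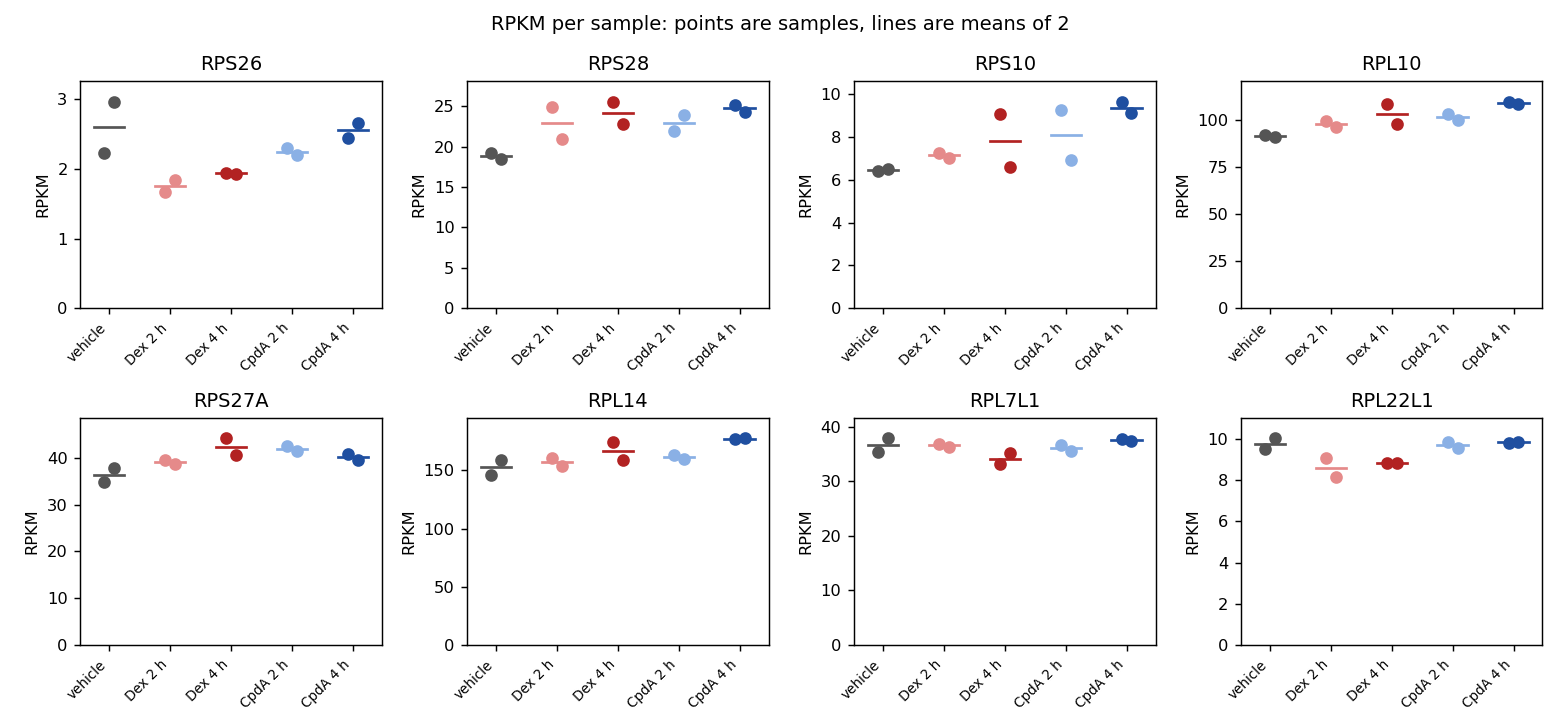
RPKM in each of the 10 samples for the 7 members called in any comparison and for RPL22L1, with points for samples and lines for the mean of 2, and axes from 0. RPS28 and RPL10 lie above vehicle in all 8 treated samples, and RPS26 lies lowest in the 4 Dex samples.

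The stalk proteins RPLP0, RPLP1 and RPLP2, which recruit elongation factors, were not called in any comparison. RPLP2 was listed at 519 and 517 RPKM with vehicle, 635 and 523 with Dex for 4 h and 582 and 544 with CpdA for 4 h. RPLP1 was at 686 and 583 RPKM with Dex for 4 h and 662 and 622 with CpdA for 4 h. RPLP0 was at 376 and 351 RPKM with vehicle, 399 and 363 with Dex for 4 h and 385 and 378 with CpdA for 4 h. For RPLP1 and RPLP2 the CpdA 4 h samples did not overlap with vehicle, with log2 fold changes of 0.15 (95% interval −0.02 to 0.32) and 0.12 (−0.07 to 0.31).

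Members with roles outside the ribosome were also not called. RPL5, RPL11 and RPL23 can bind MDM2 when ribosome assembly is disturbed. RPL11 was listed at 555 and 582 RPKM with vehicle, 645 and 580 with Dex for 4 h and 631 and 612 with CpdA for 4 h. RPL5 was at 327 and 324 RPKM with vehicle and 344 and 325 with CpdA for 4 h, and RPL23 at 400 and 399 with vehicle and 435 and 429 with CpdA for 4 h. RPS6, the substrate of S6 kinase, was at 498 and 514 RPKM with vehicle and 557 and 535 with CpdA for 4 h, a log2 fold change of 0.11 (95% interval −0.02 to 0.24). RPSA, also known as a laminin receptor, had a log2 fold change of 0.07 at CpdA 4 h, and RPL13A, which also acts in interferon-driven translational silencing, one of 0.03.

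Between 2 h and 4 h no member passed the threshold with either ligand, against 13.6% of all genes with Dex (4.55% higher and 9.02% lower at 4 h) and 12.4% with CpdA (5.21% higher and 7.2% lower). By limma, 3 members with Dex and 2 with CpdA had an unadjusted p under 0.05, against 3751 and 3586 of 12713 genes. The median log2 fold changes of the members were 0.06 and 0.07. The difference in time course between the ligands was past the threshold for no member, against 6.6% of all genes (3.04% higher and 3.56% lower). At an unadjusted p under 0.05 there were 4 members, against 2573 of 12713 genes. Both 4 h samples of CpdA were above both 2 h samples in 41 members (30.6% of all genes) and below in 5 (35.8%), and those of Dex above in 8 (20.3%) and below in 2 (32.8%). For Dex 4 h against 2 h the median of the members was 0.148 without Dex 4 h replicate 2 and −0.023 without Dex 4 h replicate 1.

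Dex and CpdA differed in few members. At 2 h none was called by limma, against 13.7% of all genes (7.53% higher and 6.18% lower with Dex). At an unadjusted p under 0.05 there were 3 members, against 3078 of 12713 genes. Both Dex samples were above both CpdA samples at 2 h in 2 members (29.4% of all genes) and below in 16 (29.4%). At 4 h they were above in 2 (28.3%) and below in 11 (35.2%). At 4 h, RPS26 and RPL7L1 were called lower with Dex, against 33.4% of all genes called (15.4% higher and 18% lower with Dex). RPS26 was at 1.95 and 1.93 RPKM with Dex and 2.45 and 2.66 with CpdA, a log2 difference of −0.38 ± 0.12 (adjusted p = 0.0442). RPL7L1, a paralog of RPL7 that works in ribosome assembly, was at 33.1 and 35.1 RPKM with Dex and 37.7 and 37.4 with CpdA, a log2 difference of −0.14 ± 0.05 (adjusted p = 0.0478). The RPL7L1 call was lost in 13 of 20 alternative analyses and that of RPS26 in 12. The direction turned on the Dex 4 h library. The median log2 difference of the members was −0.04 with all samples, −0.121 without Dex 4 h replicate 1 and 0.05 without replicate 2. Without either replicate of Dex 2 h, CpdA 2 h or CpdA 4 h none was called lower.

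Set against the other members, some genes stood apart. When each sample was shifted to a common median over the members, 10 members were called at Dex 4 h (26.1% of all genes) and 7 at CpdA 4 h (25.4%). RPS28 was higher than the set in both, by 0.27 and 0.28 on the log2 scale. RPL10 and RPS10 were higher at CpdA 4 h, by 0.14 and 0.42, and RPS4X at Dex 4 h, by 0.10. At 2 h the members called were lower than the set: RPL27 with Dex, by a log2 difference of −0.16 (7.35% of all genes called), and RPL5 and RPS7 with CpdA, by −0.12 and −0.18 (5%).

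Lower than the set were RPL3, RPL29 and RPL39L at both 4 h points, by a log2 difference of −0.10, −0.09 and −0.17 with Dex and −0.11, −0.15 and −0.17 with CpdA. Of the 4 h points, RPL27, RPS7, RPS26 and RPL22L1 were called lower at Dex alone, and RPS9 at CpdA alone, and on this centred scale the difference between the ligands was past the threshold for none of these 5 genes. It was past it for 2 members, RPL13 among them, which was higher with Dex than with CpdA at 4 h by 0.15 (25.1% of all genes called). RPL22L1, the paralog of RPL22, was at 8.82 and 8.84 RPKM with Dex for 4 h against 9.54 and 10.0 with vehicle. RPL39, the paralog of RPL39L, was listed at 16.5 and 13.8 RPKM with Dex for 2 h and 13.1 and 11.6 with Dex for 4 h, and on the centred scale it was lower at 4 h by a log2 difference of −0.34 (adjusted p = 0.0207, with 8.05% of all genes called) and higher at 2 h with Dex than with CpdA by 0.28 (adjusted p = 0.0379, with 9.3% called). RPL5 was also higher at 2 h with Dex than with CpdA on that scale, by 0.10. The genes RPL3, RPL29, RPS7, RPS9, RPL13, RPL27, RPL39 and RPS4X were named from this comparison after their values had been seen.

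Ribosomal proteins whose symbols follow another pattern gave like values. FAU, made as a fusion with a ubiquitin-like protein, was at 229 and 214 RPKM with vehicle and 269 and 252 with CpdA for 4 h, and its log2 fold change of 0.23 ± 0.07 was past the threshold (adjusted p = 0.0447), a call lost in 10 of 20 alternative analyses. GNB2L1, which encodes the scaffold RACK1, had a log2 fold change of 0.10 and was not called. The 77 mitochondrial ribosomal protein genes had a median log2 fold change of −0.02 at CpdA 4 h, with 3 higher and 5 lower (6.76% and 13.8% of all genes). At Dex 4 h their median was −0.02, with 3 higher and 10 lower (9.26% and 18.2% of all genes). Median scaling turned these counts to 6 higher and 1 lower with CpdA and 7 higher and 2 lower with Dex, with medians of 0.05 in both. Over all 12713 genes it gave 1386 higher and 1098 lower with CpdA and 1600 and 1604 with Dex. On the scale centred on the ribosomal protein genes none was higher with either ligand, against 339 of all genes with CpdA and 732 with Dex. There 24 were lower with CpdA and 17 with Dex, against 2888 and 2588 of all genes.

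Genes taken to have mRNAs with a TOP tract, translation factors among them, were listed alongside, and their tracts were not checked here. Of 16, 4 rose with CpdA for 4 h (6.76% of all genes higher) and 1 with Dex for 4 h (9.26% of all genes higher), and none fell, with medians of 0.11 and 0.04. With CpdA, 1 was called without either CpdA 4 h replicate, 9 without either Dex 4 h replicate and 2 after quantile normalization, and with Dex 5 were called after median scaling. The Dex median turned to −0.04 after quantile normalization. EEF1A1, the elongation factor that delivers aminoacyl-tRNA, was at 173 and 169 RPKM with vehicle and 206 and 205 with CpdA for 4 h (log2 fold change 0.26 ± 0.05, adjusted p = 0.00417). TPT1 rose by 0.17 with CpdA for 4 h, a call lost without either CpdA 4 h replicate, and NAP1L1 by 0.16 with Dex for 4 h.

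The machinery that builds ribosomes held genes called lower at both times. Of 47 ribosome biogenesis factors, 7 fell and none rose with Dex for 2 h (5.82% of all genes lower), with a median log2 fold change of −0.14, and 4 fell and none rose with CpdA for 2 h (4.29% of all genes lower), with a median of −0.11. With Dex for 4 h 18 fell and 1 rose (18.2% of all genes lower and 9.26% higher), with a median of −0.19. The number lower at Dex 4 h was 10 after median scaling, 19 after quantile normalization, 26 on the scale centred on the ribosomal protein genes, and 18 and 20 without Dex 4 h replicate 1 and replicate 2. With CpdA for 4 h 7 rose and 3 fell (6.76% of all genes higher and 13.8% lower), with a median of 0.04, but 0 and 1 rose without the CpdA 4 h replicates in turn, and none on the centred scale, where the median was −0.07. At 4 h, 25 were lower and 1 higher with Dex than with CpdA (18% of all genes lower and 15.4% higher). BRIX1, needed for the large subunit, was at 39.6 and 41.2 RPKM with vehicle, 26.3 and 26.0 with Dex for 4 h and 39.4 and 39.7 with CpdA for 4 h. RRS1, which loads RPL5 and RPL11 onto the growing subunit, fell by 0.66 with Dex and 0.46 with CpdA on the log2 scale at 4 h.

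Among the other factors named, PPAN fell by 0.40 with Dex for 4 h and by 0.31 with CpdA for 4 h. EIF6, which keeps the subunits apart, rose by 0.19 with Dex for 4 h. RRP12 rose by 0.33 with CpdA for 4 h, and so did DDX21, a nucleolar helicase, by 0.28, whereas DDX21 fell by 0.23 with Dex for 4 h. The calls of EIF6, RRP12 and DDX21 were each lost without 1 or more of the 4 h libraries.

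Of 15 genes of RNA polymerase I and its factors, 8 fell with Dex for 4 h and none rose (18.2% of all genes lower), with a median log2 fold change of −0.25. With CpdA for 4 h 1 rose and 3 fell (6.76% of all genes higher and 13.8% lower), and at 2 h 4 fell with Dex and 2 with CpdA (5.82% and 4.29% of all genes lower) and none rose. TAF1A was at 5.43 and 5.14 RPKM with vehicle, 2.92 and 3.29 with Dex for 4 h and 6.46 and 5.97 with CpdA for 4 h, and it fell with Dex by 0.75. CD3EAP, a polymerase I subunit, fell by 0.64 with Dex and 0.58 with CpdA. RRN3, the initiation factor, was lower with Dex by a log2 difference of −0.22 (adjusted p = 0.0355) and higher with CpdA by 0.27 (adjusted p = 0.0182). TAF1B fell by 0.43 with CpdA. Both RRN3 calls were lost without either CpdA 4 h replicate, and that with Dex also without either Dex 4 h replicate and after median scaling or quantile normalization, whereas the number of polymerase I genes lower at Dex 4 h stayed between 6 and 9 under the scalings tried.

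**Figure D5:**
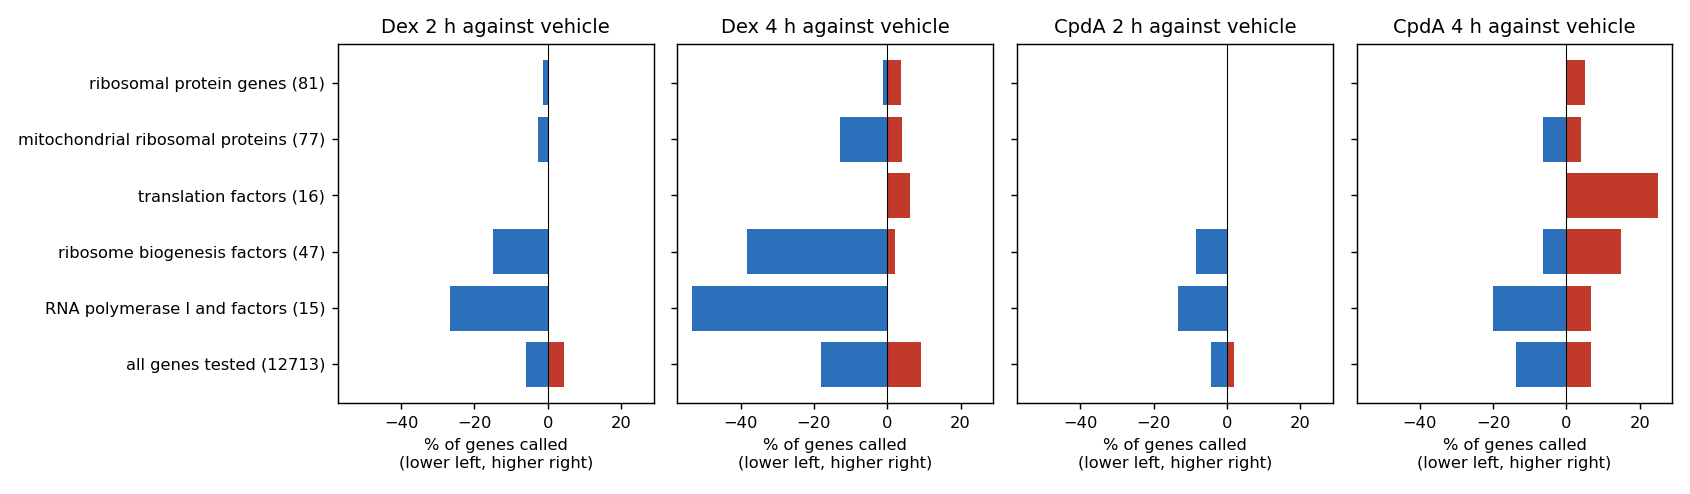
Percentage of genes called higher (right of 0) and lower (left of 0) by limma in each comparison with vehicle, for 5 gene lists and all genes tested, with the number of genes in each list in parentheses. At Dex 4 h, 18 of 47 ribosome biogenesis factors were called lower, against 1 of 81 ribosomal protein genes. The list drawn as translation factors covers the 16 genes taken to have a TOP tract, not all of them translation factors.

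The regulators mTOR, LARP1 and MYC control ribosomal protein synthesis. Of 24 genes around them, 2 rose and 3 fell with Dex for 2 h and 4 rose and 1 fell with CpdA for 2 h, against 10.3% and 6.18% of all genes called. At 4 h 4 rose and none fell with Dex (16.7% called, against 27.4% of all genes), and 9 rose and 2 fell with CpdA (45.8%, against 20.5%), and the difference between the ligands in these counts was not tested. DDIT4, an inhibitor of mTOR signalling and a GR target, was at 53.8 and 49.1 RPKM with vehicle, 335 and 329 with Dex for 4 h and 123 and 126 with CpdA for 4 h. KLF15 rose by 2.98 on the log2 scale with Dex for 4 h, and MXD1, a MYC antagonist, by 1.39 with CpdA for 4 h. EIF4EBP2 and LARP4 fell by 0.50 and 0.29 with CpdA for 4 h, the LARP4 call being lost without either CpdA 4 h replicate. Without CpdA 4 h replicate 1 the list had 5 higher and 1 lower, and without Dex 4 h replicate 2 it had 6 higher and 6 lower with Dex.

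MYC, an activator of ribosomal genes named after its values had been seen, was at 89.7 and 75.3 RPKM with vehicle, 64.7 and 61.8 with Dex for 2 h, and 136 and 128 with CpdA for 2 h. At 4 h it was at 102 and 102 RPKM with Dex and 108 and 106 with CpdA. Of 9 genes listed around the complex that RPL5 and RPL11 form and the stress response it feeds, CDKN1A, an inhibitor of the cell cycle, rose by 1.39 with Dex and 0.72 with CpdA at 4 h. BCCIP rose by 0.19 and HEATR3, which carries RPL5, fell by 0.35 with CpdA for 4 h, and both calls were lost without either CpdA 4 h replicate.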

How the data were processed

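RNA from MDA-MB-231 cells was sequenced in 10 samples (5 groups of 2). The authors aligned single-end reads of 50 bases with TopHat 2.0.13 and quantified them with Partek Genomics Suite 6.6, and deposited 1 file per sample with RPKM per gene symbol. The submitters' processing notes list hg19. How transcripts were combined and how reads with several alignments were treated is not given in the sources used here. RPKM keeps no read total, so each value was taken as log2(RPKM + 0.1), and fold changes of low genes are understated. The 12713 genes that reached 0.5 RPKM in 2 or more samples entered 1 fit of the 5 groups with limma 3.58.1 in R 4.3.3 (variance with an abundance trend), and Benjamini-Hochberg adjustment ran over all of them. P-values measure the spread between duplicates only. The script was tested on simulated data.

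The members and lists were chosen with earlier results of these data known, so no list was tested as a set. Members named were those with the 3 largest changes each way among calls, the 3 highest and 3 lowest levels, the listed paralog pairs, 9 members of known function, the 3 with the widest vehicle gap and those failing the filter. From each other list the 2 largest called changes each way at 4 h were named. Transcript lengths came from GENCODE (90.2% of genes kept had one), and starts from RefSeq. Alternatives were other pseudocounts, filters, scalings and variance models, a fit of 4 samples, a replicate block, a fold threshold and leaving out each sample. Repeating the comparison lists under the scalings and without 4 h libraries was chosen after seeing the data. Counts and medians cover all members, but some genes that these rules name are not reported here by name or drawn in the plots by gene. Chromatin immunoprecipitation samples of the series were not analysed here.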

Additional observations from a re-analysis of the deposited data

Results flagged for a closer look

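No ribosomal protein gene had a time course that differed between the ligands past the threshold, whereas 4 of the other genes named by rule did. The limma contrast was the 2 h to 4 h change with Dex minus that with CpdA. MYC, named after its values had been seen, and the genes read against the labels were not screened here. Of the 24 genes around mTOR, LARP1 and MYC, 2 had a positive difference past the threshold (3.04% of all genes). The largest difference in that list was 0.993 on the log2 scale. BRIX1 had a difference of −0.304 on the log2 scale (adjusted p = 0.0115), TAF1A of −0.618 (adjusted p = 0.0108) and DDX21 of −0.424 (adjusted p = 0.0424). DDIT4 had a difference of 0.461 (adjusted p = 0.0071), its level falling less between 2 h and 4 h with Dex (−0.13) than with CpdA (−0.59).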

How the results depend on the processing

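Counts are of ribosomal protein genes called in a comparison, with the count over all genes tested in parentheses. The genes tested were 12713 unless another number is given. Without a filter, with 20668 genes tested, Dex 2 h had 0 lower (623) and Dex 4 h 0 lower (2147). CpdA 4 h had 2 higher (814) and Dex 4 h against CpdA 4 h 0 lower (2174). With RPKM of at least 1 in every sample CpdA 2 h had 1 higher (245 of 10883 genes). Median scaling gave 6 higher (1600) and 0 lower (1604) at Dex 4 h, with a median of 0.138. It gave 8 higher (1386) at CpdA 4 h, with a median of 0.167, and 1 lower (2222) for Dex 4 h against CpdA 4 h. Over all genes it turned 1177 higher and 2310 lower at Dex 4 h into 1600 and 1604, and 860 higher and 1749 lower at CpdA 4 h into 1386 and 1098. Quantile normalization gave 4 lower (708) at Dex 2 h and 3 lower (1756) at Dex 4 h, with a median of 0.001 at Dex 4 h. It gave 3 higher (293) and 2 lower (448) at CpdA 2 h and 12 higher (1203) at CpdA 4 h. For CpdA 4 h against 2 h 3 were higher (828), and for Dex against CpdA 1 was lower (872) at 2 h and 8 (2326) at 4 h. Centring on the members gave 8 lower (2588) at Dex 4 h, 2 lower (523) at CpdA 2 h and 4 lower (2888) at CpdA 4 h. For Dex 4 h against 2 h 1 was lower (750). For Dex against CpdA 2 were higher (791) at 2 h, and 2 higher (1822) and 0 lower (1364) at 4 h. The medians became −0.016, −0.03 and −0.01 at Dex 4 h, CpdA 2 h and CpdA 4 h, by construction, and those of all genes −0.137 at Dex 4 h and −0.148 at CpdA 4 h. Without the abundance trend there were 2 lower (686) at Dex 2 h, 0 lower (2272) at Dex 4 h and 2 higher (768) at CpdA 4 h. For Dex 4 h against CpdA 4 h 0 were lower (2217). With 4 samples only, there were 0 lower (532) at Dex 2 h, and 1 higher (710) and 0 lower (1065) at Dex 4 h. There were 18 higher (846) at CpdA 4 h and 6 higher (1561) for CpdA 4 h against 2 h. For Dex against CpdA 1 was lower (1128) at 2 h and 1 (1585) at 4 h. With a fold change above 1.2 required, 1 was higher (899) at Dex 4 h, 2 higher (545) at CpdA 4 h and 1 lower (1663) for Dex 4 h against CpdA 4 h. Pseudocounts of 1 and 0.01 moved no count by over 1.5 times. The cause of these shifts was not tested, beyond fewer samples and other genes tested.

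Samples shared only a replicate number: over the 10 pairs of groups the deviations of equal numbers correlated at −0.0568 to 0.198, 3 of them over 0.1, so samples of equal number did not deviate together in every pair. Over the members alone the correlations ran from −0.977 to 0.973. With that number as a replicate block, 7 members were higher at Dex 4 h (1294 of 12713 genes) and 11 higher at CpdA 4 h (968 genes). For Dex 4 h against 2 h 1 was lower (1275 genes).

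Leaving out each sample in turn gave 0 to 37 higher and 0 to 1 lower at Dex 4 h, 0 to 23 higher at CpdA 4 h, 0 to 1 higher and 0 to 1 lower at Dex 2 h, and 0 to 2 higher at CpdA 2 h. For Dex 4 h against 2 h it gave 0 to 21 higher and 0 to 2 lower, for CpdA 4 h against 2 h 0 to 2 higher, for Dex against CpdA at 2 h 0 to 1 higher and 0 to 1 lower, and at 4 h 0 to 5 higher and 0 to 16 lower. The share of all genes called also moved with the sample left out, so these counts do not describe the members alone. The median of the members ranged from −0.028 to 0.059 at Dex 2 h, −0.019 to 0.157 at Dex 4 h, 0.003 to 0.087 at CpdA 2 h, and 0.082 to 0.128 at CpdA 4 h. It ranged from −0.023 to 0.148 for Dex 4 h against 2 h, 0.032 to 0.098 for CpdA 4 h against 2 h, and −0.079 to 0.011 and −0.121 to 0.05 for Dex against CpdA at 2 h and 4 h. No call of a named member reversed under any of these analyses, and 138 of 220 such values stayed past the threshold. With 2 samples a group and no read totals, changes much under 1.2-fold were at the limit of what could be called.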
